A study of Mus musculus with 15 samples.

Results

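AMP-activated protein kinase (AMPK) is assembled from a catalytic α subunit, a scaffolding β subunit and a nucleotide-sensing γ subunit. In neurons it restrains ATP-consuming synthesis and promotes fuel uptake, fatty acid oxidation and autophagy when AMP and ADP rise. It is switched on by phosphorylation of the α subunit, mainly by LKB1 (the product of Stk11), which acts under energy stress, and by CaMKK2, which acts when calcium rises. Each subunit is encoded by several genes, and the γ subunit binds the adenine nucleotides.

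The genes described here are the α subunit genes Prkaa1 and Prkaa2, the β subunit genes Prkab1 and Prkab2, the γ subunit genes Prkag1 and Prkag2, and the upstream kinase genes Stk11 and Camkk2. They are 8 of the 24498 genes of the deposited table, matched by symbol, and all 8 were among the 15075 genes that passed the filter on low counts. The set was chosen by family and by a measured value, the higher Prkab2 level with inhibitor than without it under acetate. That comparison is therefore described without a test, for every gene of the set.

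RNA was sequenced from mouse hippocampal neurons in primary culture, which had differentiated for 7 days and were then treated for 24 h. Acetate is the product of ethanol breakdown that reaches the brain, and ACSS2 is the enzyme that joins it to coenzyme A to make acetyl-CoA for histone acetylation and lipid synthesis. The DMSO vehicle group (n = 4) received neither agent, only DMSO and plain neurobasal medium. The DMSO acetate group (n = 4) received 5 mM acetate with DMSO. The inhibitor vehicle group (n = 3) received 20 µM ACSS2 inhibitor without acetate, and the inhibitor acetate group (n = 4) received both. No genetic change is given for any group, the labels do not name the inhibitor, and whether replicates are separate cultures or animals is not stated. P-values therefore measure the spread between these libraries, which may be technical.

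Gene counts were 19688231 to 39234799 per library, so that 1 count was worth 0.028 to 0.054 CPM (counts scaled to a common library total). All 12 neuronal markers looked for were detected, and their summed level was 4310 to 9795 CPM. The cultures also held RNA of other cells, with 10 astrocyte markers summing to 3162 to 13602 CPM, and no tested marker was at 0 in all libraries of a group. Of the 5 lists of non-neuronal markers, 4 had lower sums in every DMSO acetate than in every DMSO vehicle library, and oligodendrocyte lineage markers did not (706 to 991 against 284 to 879 CPM). Microglial and macrophage markers summed to 96.1 to 414 CPM in DMSO vehicle, against 30.3 to 41.7 CPM in DMSO acetate. In the inhibitor arm their sums overlapped, with 21.5 to 310 CPM without acetate and 29.0 to 53.2 CPM with it, and 9 of 9 tested members fell in each acetate comparison. The library DMSO vehicle 1 stood apart from its group with a mean log2 CPM of non-neuronal markers of 3.92, where the other 3 lay between 4.93 and 5.17. Inhibitor vehicle 2 stood apart likewise at 2.77, against 4.65 and 4.97. For part of the results, values without both of these libraries are also given. The fits with a non-neuronal covariate were made only with both included.

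The paralogous subunit genes are similar enough that reads could in principle be shared between them, so their longest identical stretches were looked for. In each pair it lay in the coding sequence, and was as follows, in the reference transcripts of the GRCm38 build:
Prkaa1 and Prkaa2: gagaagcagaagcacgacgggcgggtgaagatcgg
Prkab1 and Prkab2: ggagagcatcagtacaagttctt
Prkag1 and Prkag2: atcctcaagttcctc
These runs were 35, 23 and 15 bases long. No window of 50 bases was shared between Prkaa1, Prkaa2, Prkab1, Prkab2 or Camkk2 and any other gene. Of the Prkag1 windows 28.8% lay in the antisense gene B130046B21Rik, which covers 43.7% of the Prkag1 exon bases. Of the Prkag2 windows 11.5% lay in Prkag2os1 and Prkag2os2, and of the Stk11 windows 3.84% lay in Cbarp. No source used here gives the strand setting of the counting, so the values of Prkag1, Prkag2 and Stk11 are uncertain.

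Prkab2, on the plus strand at chr3:97658193-97673812, and its paralogue Prkab1, on the minus strand at chr5:116013586-116024508, had the most different acetate folds of the 3 paralogue pairs with the inhibitor present. Camkk2, on the minus strand at chr5:122731170-122779409, had the highest fold under acetate without the inhibitor. Their RefSeq promoters are shown for that reason, from 250 bases before to 50 bases after the start of transcription, in build GRCm38.p6. They cover chr3:97657962-97658261 for Prkab2, chr5:116024379-116024678 for Prkab1 and chr5:122779361-122779660 for Camkk2. Capitals mark the GC box GGGCGG and the CCAAT box, on either strand:
Prkab2: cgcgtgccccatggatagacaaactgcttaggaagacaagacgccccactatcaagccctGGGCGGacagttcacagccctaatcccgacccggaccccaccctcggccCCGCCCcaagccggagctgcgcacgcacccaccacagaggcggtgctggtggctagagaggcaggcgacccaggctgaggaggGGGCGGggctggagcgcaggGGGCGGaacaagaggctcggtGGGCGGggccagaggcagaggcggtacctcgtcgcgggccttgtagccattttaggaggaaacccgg
Prkab1: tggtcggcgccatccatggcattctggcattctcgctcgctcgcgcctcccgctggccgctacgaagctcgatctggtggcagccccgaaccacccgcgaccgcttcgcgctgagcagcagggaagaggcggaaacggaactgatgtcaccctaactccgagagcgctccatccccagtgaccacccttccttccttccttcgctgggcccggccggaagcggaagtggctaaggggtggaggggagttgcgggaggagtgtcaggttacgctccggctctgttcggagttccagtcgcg
Camkk2: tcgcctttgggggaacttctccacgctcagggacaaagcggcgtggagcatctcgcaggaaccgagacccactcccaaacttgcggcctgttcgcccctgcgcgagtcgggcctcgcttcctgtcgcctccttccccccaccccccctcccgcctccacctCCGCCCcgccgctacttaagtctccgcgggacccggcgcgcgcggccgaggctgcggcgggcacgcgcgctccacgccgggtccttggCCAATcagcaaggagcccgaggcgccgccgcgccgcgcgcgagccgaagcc
The Prkab2 window held 5 GC boxes and no CCAAT box, the Camkk2 window held 1 of each, and the Prkab1 window held neither. A GC box was present in 35.7% of the 32851 RefSeq promoter windows and a CCAAT box in 37.4%. The cyclic AMP response element TGACGTCA (1.79% of windows), the E-box CACGTG (7.15%) and the TATA sequence TATAAA (13.6%) were in none of these 3 windows, searched on both strands. The Prkaa1 window, not shown, also held 5 GC boxes and no CCAAT box. A match or its absence describes the letters of the window only.

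Per kilobase of exon, so that genes can be compared, Stk11 had the highest level of the set in DMSO vehicle, at 39.3 ± 2.79 CPM per kb (SD, n = 4). Prkag1 followed at 28.4 ± 0.933 CPM per kb. Prkab1 (8.09 CPM per kb), Prkag2 (7.85) and Camkk2 (6.35) came next, with ranges that overlapped from each to the next. Prkaa1 (3.64), Prkab2 (2.41) and Prkaa2 (1.54) were lowest, and their ranges did not overlap. Inhibitor vehicle had the same order of means, and in the acetate groups it was different for a few genes. In both acetate groups Camkk2 came next after Prkag1, at 12.6 CPM per kb in DMSO acetate and 10.6 in inhibitor acetate. Prkab2 was the lowest of the set in DMSO acetate, at 1.86 CPM per kb, overlapping Prkaa2 at 1.94. In inhibitor acetate Prkab2 stood above both α subunit genes, at 4.58 CPM per kb, against 3.30 for Prkaa1 and 1.62 for Prkaa2. The other γ subunit gene, Prkag3, known from skeletal muscle, had 2 counts in all 15 libraries together and was not tested.

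**Figure D1:**
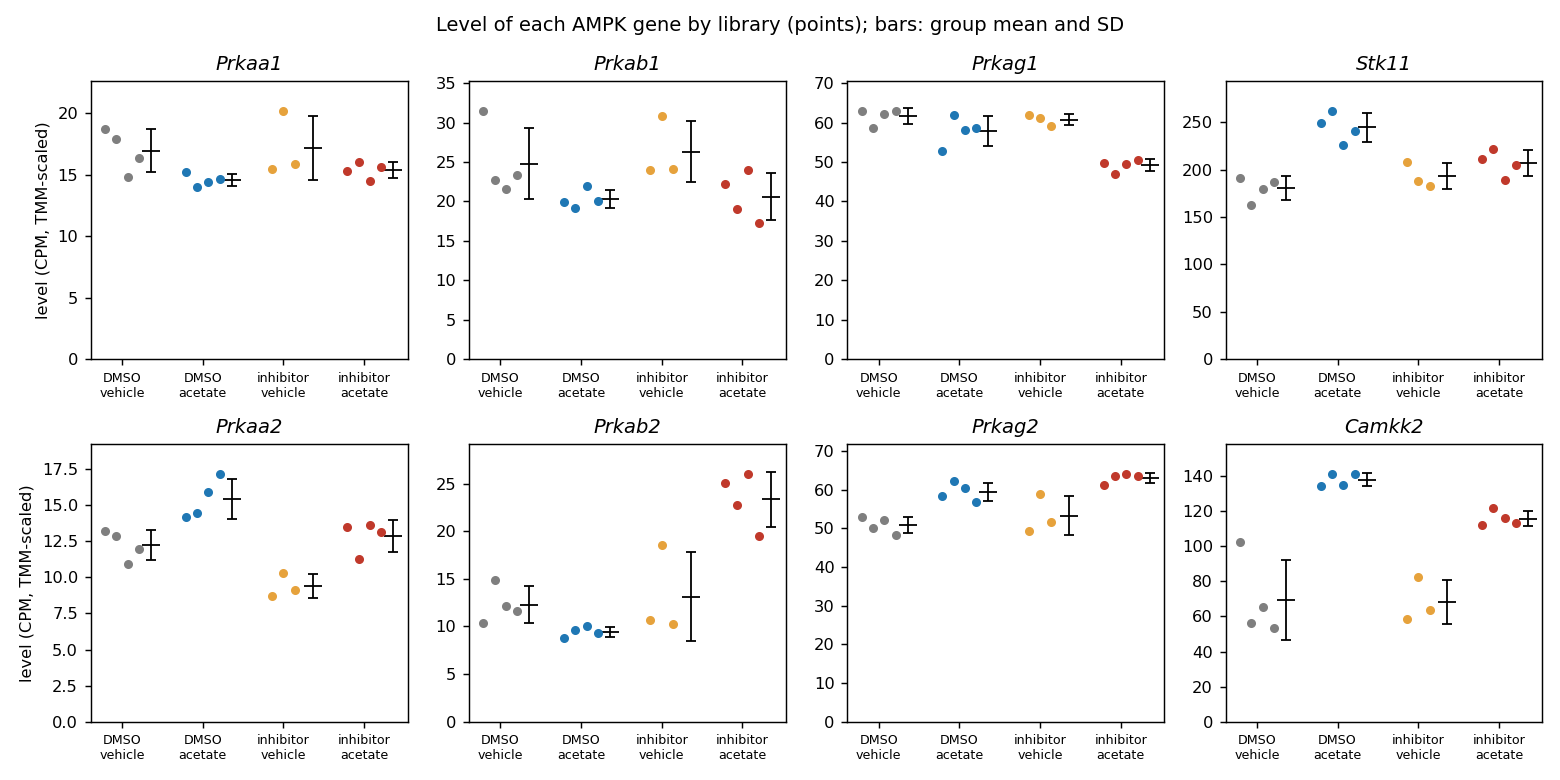
Level of each of the 8 genes in CPM (TMM-scaled, y axis from 0) in every library of the 4 groups on the x axis; points are libraries and bars the group mean and SD. Prkab2 lies between 19.5 and 26.1 CPM in inhibitor acetate and between 8.82 and 18.5 CPM in the other groups, and Camkk2 is higher in both acetate groups.

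Acetate changed 4 of the 8 genes without the inhibitor and 5 of 8 with it, by edgeR's quasi-likelihood test at an adjusted p under 0.05. Without the inhibitor Camkk2, Stk11, Prkaa2 and Prkag2 rose and 0 fell. With it Camkk2, Prkab2, Prkaa2 and Prkag2 rose and Prkag1 fell. Acetate changed a large part of all tested genes, 51.2% without the inhibitor (23.7% rose and 27.5% fell) and 35.0% with it (14.5% rose and 20.6% fell). The 4 of 8 without the inhibitor are near that background. The 5 of 8 with it include Prkab2, called on the inhibitor acetate libraries that chose the set, so that count is not read against the background. The median log2 fold of the 8 was 0.07 without and 0.17 with the inhibitor, beside -0.03 over all tested genes in each. The libraries of the acetate and vehicle groups did not overlap for 5 of the 8 genes without the inhibitor, where 45.4% of all tested genes did not. With it they did not for 6 of the 8, where 32.8% of all tested genes did not. Prkab2 is in both counts, and both acetate groups entered the choice of the set, so neither count is read against the background.

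Of the catalytic subunit genes, Prkaa2 (α2) passed under acetate in both arms and Prkaa1 (α1) in neither. The Prkaa2 levels were 13.2, 12.9, 10.9 and 11.9 CPM in DMSO vehicle, against 14.2, 14.4, 15.9 and 17.2 CPM in DMSO acetate. In the inhibitor arm they were 8.73, 10.3 and 9.15 CPM in inhibitor vehicle and 13.5, 11.2, 13.6 and 13.1 CPM in inhibitor acetate. Every acetate library was above every vehicle library of its arm. Prkaa2 rose by 0.33 on the log2 scale without the inhibitor (SE 0.10, edgeR adjusted p = 0.0114) and by 0.46 with it (SE 0.11, adjusted p = 0.00622). The difference of these responses was 0.12 (SE 0.15, adjusted p = 0.681), with a 95% interval of -0.16 to 0.41.

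Prkaa1, for α1, had 14.8 to 18.7 CPM in DMSO vehicle, against 14.0 to 15.2 CPM in DMSO acetate, ranges that overlapped. It had 15.5 to 20.2 CPM in inhibitor vehicle and 14.5 to 16.02 CPM in inhibitor acetate, and these overlapped too. Its log2 folds under acetate were -0.22 (SE 0.10, edgeR adjusted p = 0.0699) and -0.16 (SE 0.10, adjusted p = 0.249). The first passed without DMSO vehicle 3 (adjusted p = 0.024) or without inhibitor vehicle 2 (0.0367). With any other single library left out it did not pass (adjusted p up to 0.148). The second passed in none of these fits (adjusted p up to 0.856). Without both DMSO vehicle 1 and inhibitor vehicle 2 the folds were -0.17 (adjusted p = 0.101) and -0.03 (0.842).

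The ratio of counts between paralogues within a library does not depend on how libraries are scaled, and is given as a description. The Prkaa2 to Prkaa1 ratio was 0.707 to 0.734 with vehicle and 0.933 to 1.17 with acetate in the DMSO arm. In the inhibitor arm it was 0.510 to 0.576 with vehicle and 0.702 to 0.942 with acetate. Each acetate group lay wholly above the vehicle group of its arm. Per kilobase, Prkaa2 made up 29.7% ± 0.359 of the summed α level in DMSO vehicle and 38.2% ± 2.31 in DMSO acetate (SD, n = 4 each). The shares were 24.3% ± 1.19 in inhibitor vehicle (n = 3) and 32.9% ± 2.74 in inhibitor acetate (n = 4).

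Prkab2, which encodes the β2 scaffold, was high in 1 of the 4 groups. Its levels were 10.4, 14.9, 12.2 and 11.6 CPM in DMSO vehicle libraries, 8.82, 9.61, 10.1 and 9.35 CPM in DMSO acetate, and 10.6, 18.5 and 10.2 CPM in inhibitor vehicle. In inhibitor acetate they were 25.1, 22.8, 26.1 and 19.5 CPM, from 433 to 576 counts a library. Every inhibitor acetate library was above all 11 others, the nearest of which was inhibitor vehicle 2 at 18.5 CPM. Under acetate, the value that chose the set was a log2 fold of 1.30 with inhibitor over without (SE 0.17), or 2.47-fold. This value lay between 1.26 and 1.38 when any 1 library was left out, and between 1.28 and 1.40 under every other setting tried.

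With the inhibitor present, Prkab2 rose under acetate by 0.83 on the log2 scale (SE 0.18, edgeR adjusted p = 0.00422), or 1.78-fold, and 4 of 4 acetate libraries were above 3 of 3 vehicle libraries. This comparison uses the same inhibitor acetate libraries as the one that chose the gene, so its p is not independent of that choice. Without DMSO vehicle 1 and inhibitor vehicle 2 the fold was 1.16 (adjusted p = 7.52e-07). With the non-neuronal marker level as a covariate it was 0.57 and did not pass (adjusted p = 0.0836), nor did it with libraries scaled on neuronal markers (0.37, adjusted p = 0.117). Without the inhibitor, the 4 acetate libraries were all below the 4 vehicle libraries, with a log2 fold of -0.38 (SE 0.17, adjusted p = 0.0767). That fold passed without DMSO vehicle 1 (-0.47, adjusted p = 0.0378), without inhibitor vehicle 2 (-0.38, 0.0131) and without both (-0.45, 0.00215). The DMSO acetate libraries also belong to the comparison that chose the gene, so these p-values are not independent of that choice either.

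Prkab1, which encodes β1, had 21.6 to 31.5 CPM in DMSO vehicle, 19.2 to 21.9 CPM in DMSO acetate, 24.0 to 30.8 CPM in inhibitor vehicle and 17.3 to 23.9 CPM in inhibitor acetate. Its log2 folds under acetate were -0.29 without the inhibitor (SE 0.13, edgeR adjusted p = 0.0759) and -0.35 with it (SE 0.14, adjusted p = 0.0645). The first passed without DMSO vehicle 3 (adjusted p = 0.0447), and the second without DMSO vehicle 1 (0.0256) or inhibitor acetate 3 (0.0407). With any other single library left out they did not pass, with adjusted p up to 0.231 and 0.243. Without both DMSO vehicle 1 and inhibitor vehicle 2 the folds were -0.15 (adjusted p = 0.185) and -0.22 (0.105). The highest Prkab1 level of each vehicle group, 31.5 and 30.8 CPM, was in the library with the lowest non-neuronal marker level of that group. The part of that marker level in the Prkab1 values was not tested.

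The Prkab2 to Prkab1 ratio of counts was 0.33 to 0.66 for DMSO vehicle libraries, 0.44 to 0.50 for DMSO acetate and 0.42 to 0.60 for inhibitor vehicle. In inhibitor acetate it was 1.09 to 1.20, above every other library. Per kilobase, Prkab2 made up 40.6% ± 0.927 of the summed β level there (SD, n = 4), against 23.3% ± 4.99, 21.9% ± 0.906 and 22.7% ± 3.38 in DMSO vehicle, DMSO acetate and inhibitor vehicle. The summed β level itself was 8.48 ± 0.444 CPM per kb in DMSO acetate and 11.3 ± 1.54 CPM per kb in inhibitor acetate, and these ranges did not overlap. Both groups are those of the comparison that chose the set, and no test is given.

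**Figure D2:**
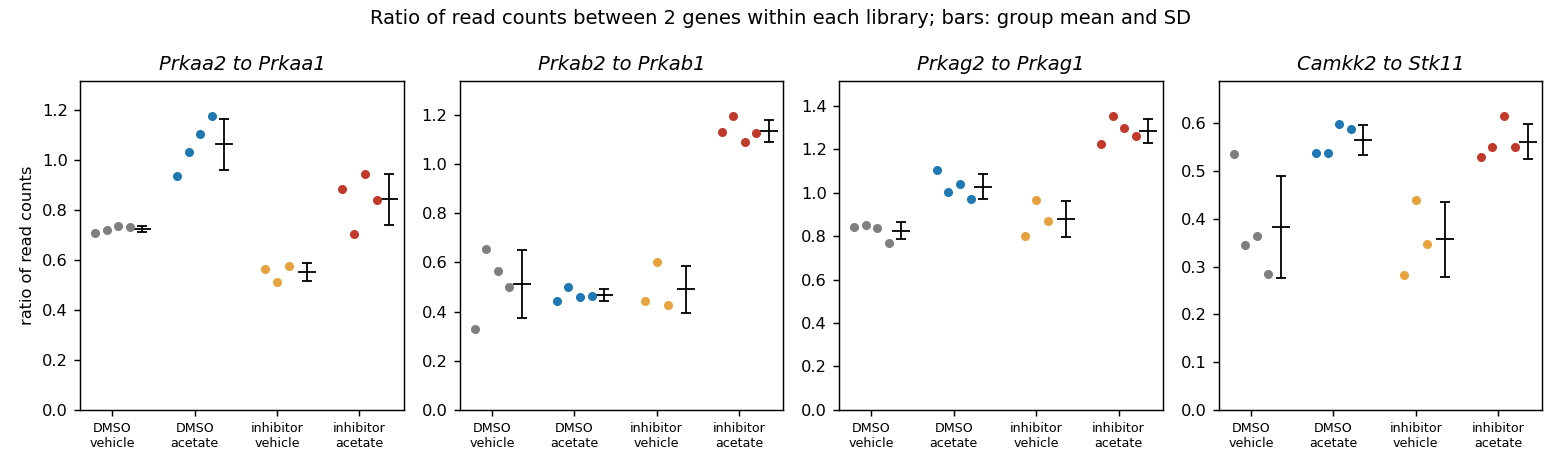
Ratio of read counts between 2 genes within each library (y axis, no unit, from 0) for the 3 pairs of subunit genes and for Camkk2 to Stk11, in the 4 groups on the x axis; points are libraries and bars the group mean and SD. The Prkab2 to Prkab1 ratio is 1.09 to 1.20 in inhibitor acetate and at most 0.66 elsewhere, while the Prkaa2 to Prkaa1 ratio is higher in each acetate group than in the vehicle group of its arm.

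With the inhibitor present, acetate moved the γ subunit genes in opposite directions. Prkag2, for γ2, had 53.0, 50.03, 52.2 and 48.3 CPM in DMSO vehicle, against 58.4, 62.2, 60.4 and 56.9 CPM in DMSO acetate, groups that did not overlap. It rose by 0.23 on the log2 scale (SE 0.06, edgeR adjusted p = 0.00757). With the inhibitor it went from 49.4, 58.9 and 51.6 CPM to 61.2, 63.4, 64.2 and 63.6 CPM, a rise of 0.24 (SE 0.07, adjusted p = 0.0135). This second rise did not pass without inhibitor vehicle 1 (0.20, adjusted p = 0.0645), without inhibitor vehicle 3 (0.22, 0.0508) or in a fit on those 2 groups alone (0.23, 0.0555).

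Prkag1, for γ1, had 62.9, 58.7, 62.2 and 63.0 CPM in DMSO vehicle, against 52.9, 62.0, 58.2 and 58.8 CPM in DMSO acetate, which overlapped (log2 fold -0.09, SE 0.06, edgeR adjusted p = 0.204). With the inhibitor its levels were 61.9, 61.1 and 59.2 CPM without acetate and 49.9, 46.9, 49.4 and 50.5 CPM with it. There Prkag1 fell by 0.30 on the log2 scale (SE 0.06, adjusted p = 0.00296). The inhibitor acetate libraries were the 4 lowest of all 15. The difference of the 2 acetate responses was -0.21 (SE 0.09, adjusted p = 0.176). It did not pass after adjustment over all tested genes, so the responses are not shown to differ. Its 95% interval, -0.38 to -0.05, leaves out 0 but carries no such adjustment. The Prkag2 to Prkag1 ratio of counts was 0.77 to 0.85 and 0.97 to 1.10 in DMSO vehicle and DMSO acetate, then 0.80 to 0.96 and 1.23 to 1.35 in the matching inhibitor groups. Each acetate group was wholly above both vehicle groups.

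Of the upstream kinases, Camkk2 had the highest fold of the set under acetate without the inhibitor. Its levels were 102, 56.2, 65.5 and 53.2 CPM in DMSO vehicle, against 135, 141, 135 and 141 CPM in DMSO acetate. The highest vehicle level was that of DMSO vehicle 1, and the groups did not overlap. Camkk2 rose by 0.99 on the log2 scale (SE 0.16, edgeR adjusted p = 0.00027), or 1.99-fold. In the inhibitor arm it went from 58.8, 82.7 and 63.6 CPM to 112, 122, 116 and 113 CPM, a rise of 0.76 (SE 0.18, adjusted p = 0.00579). The difference of the responses was -0.23 (SE 0.24, adjusted p = 0.629), with an interval of -0.70 to 0.24. Without DMSO vehicle 1 and inhibitor vehicle 2 the folds were 1.25 and 0.92, both still called.

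Stk11, the gene for LKB1, had 191, 162, 180 and 187 CPM in DMSO vehicle, against 250, 262, 226 and 241 CPM in DMSO acetate. The groups did not overlap, and Stk11 rose by 0.44 on the log2 scale (SE 0.07, edgeR adjusted p = 0.000293). With the inhibitor the levels were 208, 188 and 183 CPM without acetate and 211, 221, 189 and 205 CPM with it, which overlapped. The log2 fold there was 0.10 (SE 0.08, adjusted p = 0.359). The difference of the responses was -0.34 (SE 0.11, adjusted p = 0.101), with a 95% interval of -0.55 to -0.13. It did not pass after adjustment over all tested genes, which the interval does not carry, so the inhibitor is not shown to alter the Stk11 response. The Camkk2 to Stk11 ratio of counts was 0.28 to 0.54 and 0.54 to 0.60 in DMSO vehicle and DMSO acetate, then 0.28 to 0.44 and 0.53 to 0.61 in the matching inhibitor groups.

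**Figure D3:**
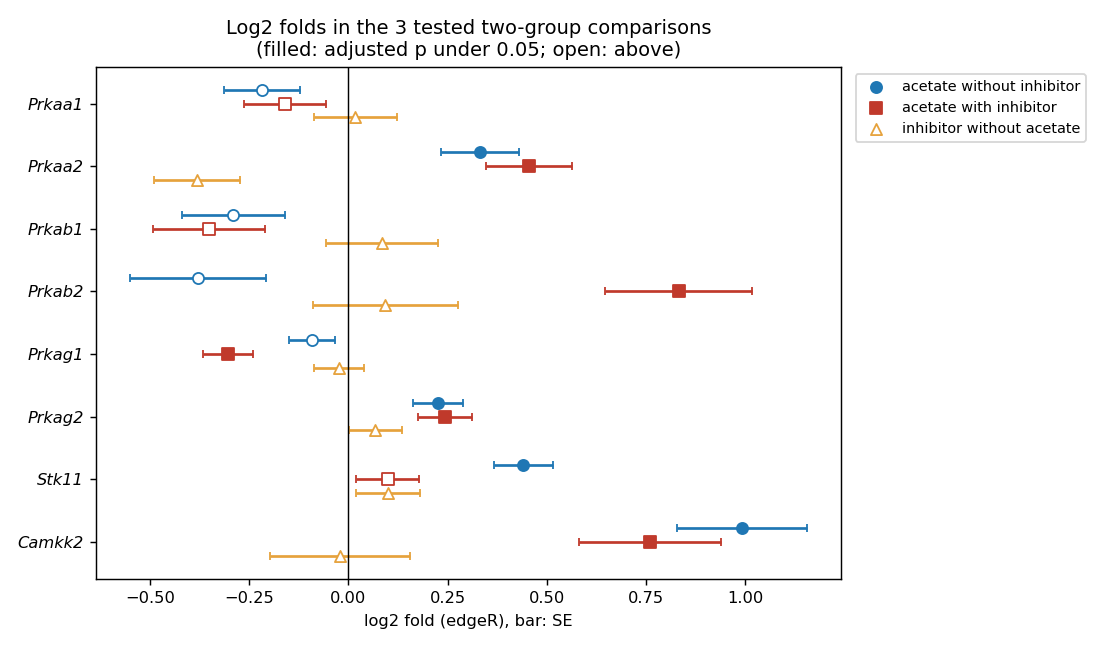
Log2 folds (x axis) of the 8 genes (y axis) in the 2 acetate comparisons and in the comparison of the inhibitor without acetate; bars are the SE, and filled symbols have an edgeR adjusted p under 0.05. Prkab2 is the gene whose 2 acetate folds, -0.38 and 0.83, lie farthest apart.

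Marker levels moved with these results. Under acetate 10 of 12 neuronal markers rose without the inhibitor and 9 of 12 with it, with median log2 folds of 0.61 and 0.50. Of the other lists, 6 of 10 astrocyte, 7 of 9 oligodendrocyte lineage, 6 of 8 vessel and 8 of 9 meningeal markers fell without the inhibitor, and 5 of 10, 5 of 9, 4 of 8 and 7 of 9 with it. The summed oligodendrocyte lineage level was not lower under acetate, with 706 to 991 CPM in DMSO acetate against 284 to 879 CPM in DMSO vehicle, and 438 to 1100 against 245 to 1094 CPM in the inhibitor arm. Of the vessel markers 1 rose without the inhibitor, and Pdgfra is in both the oligodendrocyte lineage and the meningeal list. In bulk RNA, fewer cells of a type and less RNA per cell cannot be told apart.

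When the non-neuronal marker level was added to the fit as a covariate, Camkk2 (0.37 and 0.30), Prkaa2 (0.13 and 0.32) and Prkag2 (0.05 and 0.12) no longer passed in the acetate comparisons without and with the inhibitor, with adjusted p from 0.157 to 0.805. Stk11 still rose without the inhibitor (0.41, adjusted p = 0.0439). In that fit Prkaa1, Prkab1 and Prkab2 fell without the inhibitor, by 0.52, 0.71 and 0.82 on the log2 scale. Prkab1 and Prkag1 fell with it, and 12.3% and 10.8% of all tested genes were called. The Prkab2 fall used the DMSO acetate libraries, which also entered the choice of the set, so it is not independent of that choice. The marker level of DMSO vehicle (3.92 to 5.17) and of DMSO acetate (2.82 to 2.91) did not overlap, so in this arm the covariate and the acetate group can hardly be told apart. The inhibitor acetate group (2.63 to 2.89) overlapped DMSO acetate, so the covariate has little to adjust between these groups. In the inhibitor arm only inhibitor vehicle 2 (2.77, against 4.65 and 4.97 in its group) lay within the range of the acetate libraries. With a mean per group, the covariate is fitted on differences within groups. These came largely from inhibitor vehicle 2 and from DMSO vehicle 1 (3.92, against 4.93 to 5.17). No covariate fit without these libraries was made.

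Scaling the libraries on the 12 neuronal markers lowered the median of all genes by 0.68 and 0.52 on the log2 scale in the acetate comparisons. Relative to neuronal markers, 1 of the 8 genes, Camkk2, rose without the inhibitor and 6 fell, and 1 rose and 5 fell with it. Of all tested genes 336 then rose and 11755 fell without the inhibitor, and 222 and 9738 with it. The directions of Prkaa2 (-0.34 and -0.05), Prkag2 (-0.45 and -0.27) and Stk11 (-0.23 and -0.43) were then reversed without and with the inhibitor. Camkk2 was the only gene of the set that rose in both arms with TMM scaling and with this one. With upper-quartile scaling 8 of the 8 genes were called without the inhibitor, 4 higher and 4 lower, beside 51.9% of all tested genes.

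**Figure D4:**
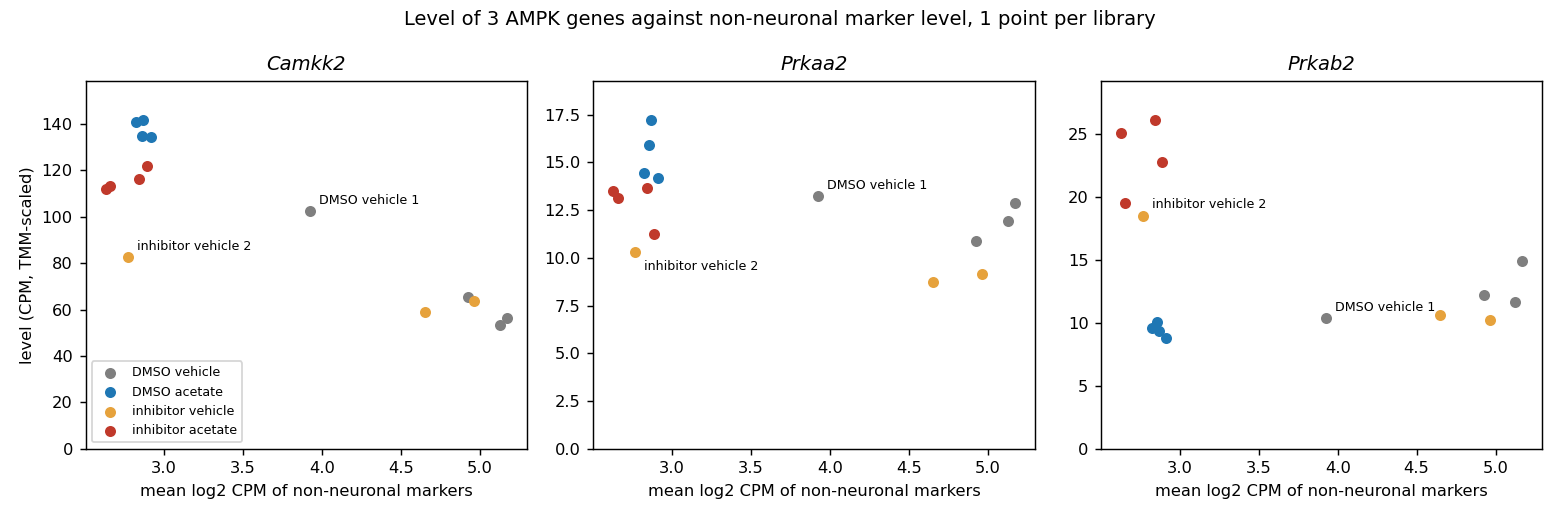
Level of Camkk2, Prkaa2 and Prkab2 in CPM (y axis, from 0) against the mean log2 CPM of non-neuronal markers (x axis), 1 point per library, coloured by group. Both acetate groups lie between 2.63 and 2.91 on the x axis, where Prkab2 is 8.82 to 10.1 CPM in DMSO acetate and 19.5 to 26.1 CPM in inhibitor acetate.

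**Figure D5:**
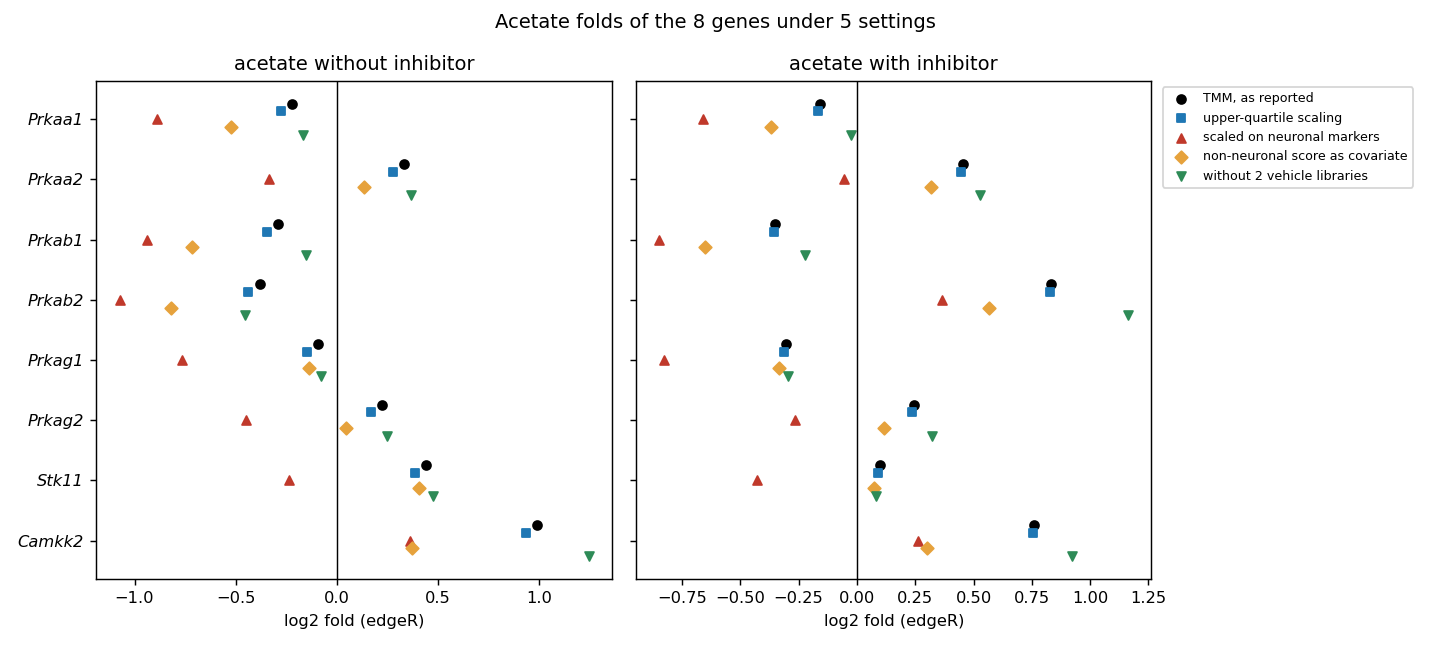
Log2 folds under acetate (x axis) of the 8 genes (y axis) without and with the inhibitor, under 5 settings of the fit. Scaling on neuronal markers lies lowest for nearly every gene, and moves Stk11 from 0.44 to -0.23 without the inhibitor.

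The inhibitor by itself changed 0 of the 8 genes at an adjusted p under 0.05 (edgeR), where 5.46% of all tested genes passed. At an unadjusted p under 0.05, where 3833 of the 15075 tested genes passed, 1 of the 8 was lower, Prkaa2. Its levels, 10.9 to 13.2 CPM in DMSO vehicle against 8.73 to 10.3 CPM in inhibitor vehicle, did not overlap, as for 16.7% of all tested genes. The log2 fold of Prkaa2 was -0.38 (SE 0.11, adjusted p = 0.0518). It passed by DESeq2 (adjusted p = 0.0195), with upper-quartile scaling (0.0458), with the non-neuronal covariate (0.0163) and without DMSO vehicle 3 (0.0468). By edgeR it did not pass without DMSO vehicle 1 and inhibitor vehicle 2 (adjusted p = 0.0612) or on neuronal markers (0.173). Nor did it pass in 14 of the 15 fits that left out 1 library (adjusted p up to 0.166). A fit on the compared groups alone called 0 of 14977 genes. The log2 folds of the other 7 genes were between -0.02 and 0.10. Prkab2 was at 0.09 (SE 0.18, edgeR adjusted p = 0.792), with a 95% interval of -0.27 to 0.45. Without inhibitor vehicle 2 it was -0.24, and that library had 18.5 CPM where the others had 10.6 and 10.2.

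For the 7 genes other than Prkab2, the difference of the 2 acetate responses passed for 0 by edgeR, where 0.0199% of all tested genes passed (3 of 15075), and for 0 by DESeq2, which called 1018 genes in all. At an unadjusted p under 0.05 by edgeR there were 2 of the 7, Prkag1 and Stk11, beside 3113 of the 15075 tested genes. For Prkab2 the difference was 1.21 (SE 0.25), and since it contains the comparison that chose the gene it is given as a description, with no test. It was 1.62 without DMSO vehicle 1 and inhibitor vehicle 2.

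Under acetate, the inhibitor acetate libraries were lower than those of DMSO acetate with no overlap for Prkaa2, Prkag1, Stk11 and Camkk2, with log2 folds of -0.26, -0.24, -0.24 and -0.25, and higher for Prkab2. Across all tested genes 21.4% did not overlap and 5.78% passed in this comparison. The remaining folds were 0.08 for Prkaa1, 0.02 for Prkab1 and 0.09 for Prkag2.

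The genes whose pattern over the 15 libraries was most like that of Prkab2 were found by the root mean square difference of centred log2 CPM, among the 11539 genes whose average log2 CPM was 2 or more. They were Tacr1 (0.23), a receptor for substance P, Sh3bp5 (0.26), Pde4b (0.27), a cyclic AMP phosphodiesterase, Ypel5 (0.28) and Ralgps2 (0.29). The median over all candidates was 0.58. In Sh3bp5 the level was 37.0 ± 6.38 CPM in DMSO vehicle, 25.6 ± 2.90 in DMSO acetate, 40.2 ± 3.07 in inhibitor vehicle and 55.9 ± 3.69 in inhibitor acetate (SD, n = 4, 4, 3 and 4). From DMSO vehicle to DMSO acetate the mean was also lower in Tacr1 (5.21 to 4.41 CPM) and Ypel5 (39.0 to 36.1). It was higher in Pde4b (17.1 to 17.9) and Ralgps2 (34.2 to 41.0). Ypel5 was already at 57.4 ± 11.3 CPM in inhibitor vehicle. The other AMPK genes were less like Prkab2, from 0.48 for Prkag2 to 0.71 for Camkk2.

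Further genes of the pathway were taken from 9 lists with 107 genes, of which 104 were tested. Without the inhibitor 29 rose and 31 fell under acetate, or 57.7%, beside 51.2% of all tested genes. With the inhibitor 21 rose and 18 fell, or 37.5%, beside 35.0%. These shares are near the background. When DMSO vehicle 1 and inhibitor vehicle 2 were left out, 32 rose and 37 fell without the inhibitor. With it 33 then rose and 25 fell, beside 59.6% and 49.2% of all tested genes called without and with the inhibitor. With the non-neuronal covariate 4 rose and 11 fell without the inhibitor, and 5 and 8 with it, beside 12.3% and 10.8% of all genes. Scaled on neuronal markers, 3 rose and 86 fell without it, and 3 rose and 71 fell with it. Of all tested genes 80.2% and 66.1% were then called. In the inhibitor arm 24 or 25 were called when inhibitor vehicle 1 or 3 was left out, beside 20.46% or 21.55% of all genes.

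Among the partners of LKB1 and other AMPK kinases, 1 of 6 rose and 1 fell without the inhibitor, and 2 rose with it. Stradb, a pseudokinase partner of LKB1, rose by 0.51 (SE 0.07, edgeR adjusted p = 9.02e-05) and by 0.45 with the inhibitor (SE 0.08, adjusted p = 0.00113), but was at -0.16 and -0.06 when scaled on neuronal markers. Map3k7, which encodes TAK1, fell by 0.28 on the log2 scale without the inhibitor. Of 7 genes for CaMKK2 substrates and calmodulin 5 rose and 0 fell without the inhibitor, and 3 rose and 0 fell with it. The median log2 folds were 0.47 and 0.39. On neuronal markers 2 rose and 4 fell without the inhibitor, and 1 rose and 3 fell with it. Calm3, a calmodulin gene, rose by 0.94 and 0.76, and Camk4, a kinase that CaMKK2 phosphorylates, by 1.11 without the inhibitor. With the non-neuronal covariate 1 of the 7 rose and 1 fell without the inhibitor, and 1 rose with it. Calm3 (0.50 and 0.43) and Camk4 (0.02) then did not pass (adjusted p = 0.0917, 0.113 and 0.954), nor did Stradb (0.28 and 0.29, adjusted p = 0.0921 and 0.0531). Map3k7 still did (-0.39, adjusted p = 0.0371).

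Of 8 phosphatase and folliculin complex genes, 1 rose and 4 fell without the inhibitor, and 1 rose and 2 fell with it. Flcn, the gene for folliculin, fell by 0.91 and by 0.49 on the log2 scale, and Ppm1e, a phosphatase that acts on AMPK, rose by 0.58 and 0.65 (-0.07 and 0.15 on neuronal markers). With the non-neuronal covariate neither passed: Flcn was at -0.38 and -0.11 (adjusted p = 0.0558 and 0.569) and Ppm1e at 0.16 and 0.35 (adjusted p = 0.562 and 0.138). Among 12 AMPK-related kinases 5 rose and 4 fell without the inhibitor, such as Brsk1, a neuronal polarity kinase (0.66, or -0.01 on neuronal markers), and Nuak1 (-0.74) and Sik3 (-0.83). With it 3 rose, Brsk1 (0.33), Brsk2 (0.40) and Mark4 (0.46), at -0.19, -0.12 and -0.07 on neuronal markers, and 1 fell, Sik3 (-0.42). Brsk2 and Mark4 also rose without it (0.35 and 0.60). With the non-neuronal covariate Brsk1 (0.50 and 0.22) and Sik3 (-0.48 and -0.14) did not pass in either arm, nor Brsk2 (0.29) and Mark4 (0.40) with the inhibitor, while Nuak1 (-0.57, adjusted p = 0.0305) did.

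Of 20 genes for AMPK substrates 4 rose and 7 fell without the inhibitor, and 4 rose and 5 fell with it. Pfkfb3, whose product activates glycolysis, fell by 1.16 and 0.49 on the log2 scale, and Tbc1d1, a regulator of glucose transporter traffic, fell by 0.53 and 0.40. Acaca, the cytosolic acetyl-CoA carboxylase, rose by 0.57 and 0.49 (-0.08 and -0.01 on neuronal markers). With the non-neuronal covariate Acaca did not pass (0.11 and 0.16, adjusted p = 0.579 and 0.314), and Pfkfb3 (-0.98, adjusted p = 0.00227) and Tbc1d1 (-0.53, 0.0251) passed without the inhibitor but not with it (-0.34 and -0.39, adjusted p = 0.167 and 0.0505). Of 17 tested genes of mTORC1 and its regulators 3 rose and 4 fell without the inhibitor, and 4 rose and 1 fell with it. Rragb (0.65) and Rraga (0.30), genes for Rag GTPases, and Ddit4 (0.48), an mTORC1 inhibitor, rose with the inhibitor, and Ddit4 also without it (0.30), but Rraga (-0.23) and Ddit4 (-0.05) were turned by the neuronal scaling and Rragb was at 0.13. With the covariate the 3 had adjusted p of 0.0762, 0.0604 and 0.0836.

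Of 16 genes for mitochondrial biogenesis and fuel use 3 rose and 7 fell without the inhibitor, and 1 rose and 5 fell with it. Hk2, a hexokinase, fell by 1.46 and 1.28 on the log2 scale, and Slc2a1, the glucose transporter of astrocytes and vessels, fell by 1.49 and 1.32. Of 9 genes of autophagy initiation 3 rose and 1 fell without the inhibitor and 1 rose with it. Rb1cc1, a scaffold of the ULK complex, rose by 1.07 and 0.70. It did not pass with the non-neuronal covariate (0.47 and 0.33, adjusted p = 0.271 and 0.358) or on neuronal markers (0.40 and 0.23, adjusted p = 0.0666 and 0.329). Of 12 tested adenine nucleotide and phosphocreatine enzymes 4 rose and 3 fell without the inhibitor, and 2 rose and 4 fell with it. Ckmt1, the mitochondrial creatine kinase, rose by 1.27 and 1.03. Ampd3, an AMP deaminase, fell by 1.60 and 1.38. With the non-neuronal covariate Hk2 (-1.34 and -1.20), Slc2a1 (-0.74 and -0.74), Ckmt1 (0.68 and 0.64) and Ampd3 (-0.86 and -0.81) still passed in both arms.

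The inhibitor without acetate changed 4 of the 104 genes (3.85%, beside 5.46% of all). Atg13 (0.44, SE 0.07, edgeR adjusted p = 0.00817), Rb1cc1 (0.80, adjusted p = 0.0417) and Cpt1c (0.40, adjusted p = 0.0483) rose, and Rraga fell by 0.43 on the log2 scale (adjusted p = 0.022). This count was 1 to 14 when single libraries were left out, with 14 without inhibitor vehicle 3 (10.7% of all genes). It was 2 without DMSO vehicle 1 and inhibitor vehicle 2, 0 when scaled on neuronal markers and 13 by DESeq2. Of all tested genes 5.31%, 0.59% and 11.1% passed in these settings, in that order. In a fit on the compared groups alone the count was 0, and 0 of all 14977 genes tested there passed. In the difference of the responses 0 of 104 passed by edgeR. An unadjusted p under 0.05 was found for 27 of them, beside 3113 of all 15075 tested genes. DESeq2 called 7 of the 104, beside 6.75% of all tested genes. Without DMSO vehicle 1 and inhibitor vehicle 2, 9 passed by edgeR, beside 4.29% of all genes.

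Under acetate, in the comparison that chose the set, 9 of the 104 genes were past the threshold with a higher level in the presence of the inhibitor and 1 with a lower one. They are given as a description, beside the 5.78% of all genes. The count of 10 was 0 without DMSO acetate 2 or 4, where 1.24% and 2.14% of all genes passed. It was 1 to 5 without DMSO acetate 3 or any 1 of the inhibitor acetate libraries (1.81% to 2.74% of all genes). On neuronal markers it was 0 (0.783%), and without DMSO vehicle 1 and inhibitor vehicle 2 it was 24 (17.6%). Among the 10 were Sik2, a salt-inducible kinase (0.64), and Ulk1, which starts autophagy and is an AMPK substrate (0.30). Txnip, which restrains glucose uptake (0.88), and Slc2a4, the insulin-regulated glucose transporter (-0.53), were also among the 10.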

How the data were processed

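The values deposited by the authors are raw read counts, 1 row per gene symbol. Per the submitters' processing notes the tools were STAR 2.5.2a, HTSeq 0.6.1p1 and DESeq2, with build mm10. Libraries were made with a strand-specific kit, per the labels' protocols. Annotation and strand setting of the counting: not given in the sources used here. The 5 lines that name no gene (38.9% to 47.4% of a library) entered neither library sizes nor tests. Within-group pairs of libraries differed by 4.65 to 144 in chi-square per gene over 21 pairs, so none was a copy.

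The fit used edgeR 4.0.16 in R 4.3.3, with its default expression filter, TMM scaling and a single quasi-likelihood fit over 15 libraries with a mean per group. P-values were adjusted by Benjamini-Hochberg over 15075 genes, with a threshold of 0.05, and each SE is the absolute log2 fold over the root of its F statistic. The biological coefficient of variation was 16.8%. Intervals given as 95% are the fold ± 1.96 SE, with no adjustment for the number of genes tested. DESeq2 1.42.0 was an alternative. Marker level is the mean log2 CPM (prior count 2) of the non-neuronal lists. Levels per kb use merged exons of GENCODE M21 (GRCm38), and promoters are RefSeq's.

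Genes named were the 8 genes, Prkag3, up to 3 called genes with the smallest p per pathway list and comparison, and the 5 genes most like Prkab2. The genes and lists were chosen with earlier results of these data known. The steps were tested on simulated data.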

Additional observations from a re-analysis of the deposited data

Results flagged for a closer look

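The Prkab2 response to acetate had opposite directions in the arms without and with the inhibitor. Every DMSO acetate library was below every DMSO vehicle library (8.82 to 10.1 against 10.4 to 14.9 CPM), and every inhibitor acetate library was above every inhibitor vehicle library (19.5 to 26.1 against 10.2 to 18.5 CPM). The difference of the 2 log2 folds was 1.21. It contains the comparison that chose the gene and is given without a test. Of the 24 groups of 4 libraries, 8 genes in 3 groups, 0 held a library far from the others by Dixon's criterion. Inhibitor vehicle, with 3 libraries, was not looked at, and there Prkab2 was at 18.5 CPM in inhibitor vehicle 2. Camkk2 in DMSO vehicle 1 (102 CPM, against 53.2 to 65.5) was not flagged either. The count of 0 therefore does not show that no library stands apart.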

How the results depend on the processing

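The 8 genes were recounted under RLE and upper-quartile scaling, scaling on neuronal markers, no filter, a replicate block, a non-neuronal covariate, without DMSO vehicle 1 and inhibitor vehicle 2, on the compared groups alone, with DESeq2 and without each library. Shares in brackets are of all tested genes called. Under acetate without the inhibitor, 4 were called (51.2%), against 8 with upper-quartile scaling (51.9%) and 7 on neuronal markers (80.2%). The covariate fit also called 4 (12.3%), of which 1, Stk11, was among the 4 of the report. Prkab2, whose DMSO acetate level entered the choice of the set, was among those called in the upper-quartile, neuronal and covariate fits. With the inhibitor, 5 were called (35.0%), against 2 with the covariate (10.8%), both lower. For the inhibitor without acetate, 0 were called (5.46%), against 1 (Prkaa2) with upper-quartile scaling (5.43%), the covariate (14.5%) or DESeq2 (11.1%), and 0 to 1 without single libraries (1 without DMSO vehicle 3, 4.08%). For the inhibitor without acetate, the fit on the compared groups alone called 0 of all 14977 genes tested in it. For the difference, 0 of the 7 genes other than Prkab2 were called under any setting. The count over all 8 was 0 (0.0199%), and 1 with the covariate (5.25%), without the 2 vehicle libraries (4.29%) or with DESeq2 (6.75%), and 0 to 1 without single libraries (1 without DMSO vehicle 1, 0.432%, inhibitor vehicle 2, 0.124%, or inhibitor vehicle 3, 6.60%). That 1 is Prkab2, whose difference contains the value that chose the set, so it is no test. The causes were not tested.

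The neuronal scaling shifted all-gene medians by -0.68 and -0.52 under acetate and by 0.16 in the difference. It turned Prkaa2 (-0.34 and -0.054), Prkag2 (-0.45 and -0.27) and Stk11 (-0.23 and -0.43), without and with inhibitor. For the inhibitor without acetate, Prkaa1 was -0.0091 with upper-quartile scaling, -0.055 on neuronal markers, -0.095 with the covariate and -0.064 without the 2 vehicle libraries. Prkab2 was -0.034, -0.10 and -0.31 under the last 3 of these, Prkab1 was -0.062 with the covariate, and Camkk2 was 0.072 without the 2 vehicle libraries. In the difference Prkab1 was 0.093 on neuronal markers and 0.061 with the covariate. None of these inhibitor folds passed. Leaving out single libraries gave -0.11 to 0.086 for Prkaa1, -0.045 to 0.22 for Prkab1, -0.24 to 0.24 for Prkab2, -0.0096 to 0.12 for Prkag2 and -0.18 to 0.23 for Camkk2 with the inhibitor alone, and -0.18 to 0.067 for Prkab1 and -0.021 to 0.095 for Prkag2 in the difference.

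Same-numbered libraries did not deviate together (correlations of -0.65 to 0.38), so the numbers were not taken to pair them. With a replicate block 4, 5, 0 and 0 of the 8 genes were called, as without it. Counts in all groups were at least 173 per library for these genes, and how depth bears on the calls was not tested.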
